A study of Mus musculus with 18 samples.

Results

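The transcripts of 6 matrix metalloproteinases (Mmp2, Mmp3, Mmp9, Mmp11, Mmp14 and Mmp23) and of the 4 tissue inhibitors of metalloproteinases (Timp1, Timp2, Timp3 and Timp4) were followed in sorted cardiac fibroblasts of the newborn mouse. These 10 genes were taken by symbol from a table of 55453 gene symbols, and all 10 passed the filter on low counts that left 16170 genes to test. The 18 RNA sequencing libraries fell into 6 groups of 3. All pups were C57BL/6J mice that carried Tcf21-MerCreMer and Rosa-mTmG (TCF21 MerCreMer/+; Rosa mTmG/+) and received 4-hydroxytamoxifen at P1, so that Cre driven from the Tcf21 locus turned on membrane GFP in the Tcf21 lineage, and GFP+ cells from the apical ventricle were then sorted. P2 baseline and P10 baseline cells came from un-manipulated pups at those ages. P2 sham, P2 resection, P10 sham and P10 resection cells were collected 3 days after the operation, hence at P5 and P13, and the sham pups also had their chest opened and heart exposed. The P2 operation lies within the period in which the mouse heart regenerates, and the P10 operation lies after it. A label made at P1 marks the Tcf21 lineage of that day and its descendants, and it does not mark cells that switch Tcf21 on later. No source used here says how many pups went into a library or whether replicates came from separate litters, so the p-values measure the spread between these libraries, which may be technical.

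Matrix metalloproteinases are zinc enzymes that cut collagens, proteoglycans and other parts of the extracellular matrix, and most are made as inactive proenzymes that must be cleaved. Timps are small proteins that bind the active site of the enzymes, and their relative amounts set how much matrix is cut. In the heart, fibroblasts are a main source of both, and the balance is known to shift during growth, after infarction and in fibrosis. MMP14, a membrane-anchored collagenase, activates the proenzyme of MMP2 (gelatinase A) on the cell surface with TIMP2 as the bridge between them, so that TIMP2 takes part in activation as well as in inhibition.

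The libraries held between 10462737 and 22980554 counted reads, and the 10 genes together took 0.445% to 1.01% of them. Levels are given as CPM, the usual per-library scaling of counts (here with TMM factors). Within each group the chi-square between replicates was 34.2 or more per gene, a value set against counting error of reads alone, so no pair of replicates looked like 1 library deposited again. The fibroblast genes Tcf21, Pdgfra, Col1a1 and Dcn had counts in all 18 libraries, with Tcf21 between 203 and 447 CPM and Pdgfra between 256 and 878 CPM. The 8 fibroblast markers summed to 44464 to 90790 CPM in the P2 libraries and to 65449 to 103854 CPM in the P10 libraries. Markers of other cells were lower, with summed levels of 512 to 1984 CPM for 8 mural genes, 139 to 1311 CPM for 9 cardiomyocyte genes, 5.29 to 1081 CPM for 12 macrophage genes, 169 to 478 CPM for 8 endothelial genes, 30.1 to 99.3 CPM for 8 epicardial genes and 0 to 16.2 CPM for 9 neutrophil genes. In these bulk libraries, more cells of a type and more RNA per cell cannot be told apart.

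The 10 genes spanned a wide range of levels. To compare genes with each other, CPM was divided by the length of the union of the annotated exons, which gives CPM per kilobase of exon. On this scale Mmp2 was the most abundant member, with 487 to 774 in the 9 P2 libraries and 896 to 1295 in the 9 P10 libraries. Timp2 came next, with 269 to 458 at P2 and 649 to 1025 at P10, and it was below Mmp2 in all 18 libraries. Mmp14 (140 to 279 over the 18 libraries) and Mmp23 (125 to 233) followed and overlapped each other. Timp3 lay between 15.9 and 54.8 and Mmp11, also called stromelysin-3, between 10.5 and 34.3, and these neighbours overlapped as well. Timp1 had the widest ratio of highest to lowest level among the genes with counts in every library, from 14.0 in a P10 baseline library to 555 in a P10 resection library. Its place in the order moved with it: at P10 baseline its mean of 21.2 ± 8.20 (SD, n = 3) lay below that of Timp3 (35.4 ± 11.3), and at P10 resection its mean of 342 ± 198 lay above that of Mmp14 (189 ± 17.0). Mmp3 lay between 0 and 75.5, Timp4 between 0 and 1.67 and Mmp9 between 0 and 1.18. Among all genes of the table, Mmp2 ranked 17 and Timp2 ranked 27 by mean CPM, which is not adjusted for length.

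Mmp9 and Timp4 were near the limit of detection, and so was Mmp3 outside the operated P10 libraries. Mmp3 and Mmp9 had counts in 11 of 18 libraries each and Timp4 in 14. A library without counts could still hold up to 3 counts, a limit that covers counting error only, because amplified reads carry no molecular identifiers. Of all Mmp3 counts, 60.4% were in the third P10 resection library.

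**Figure D1:**
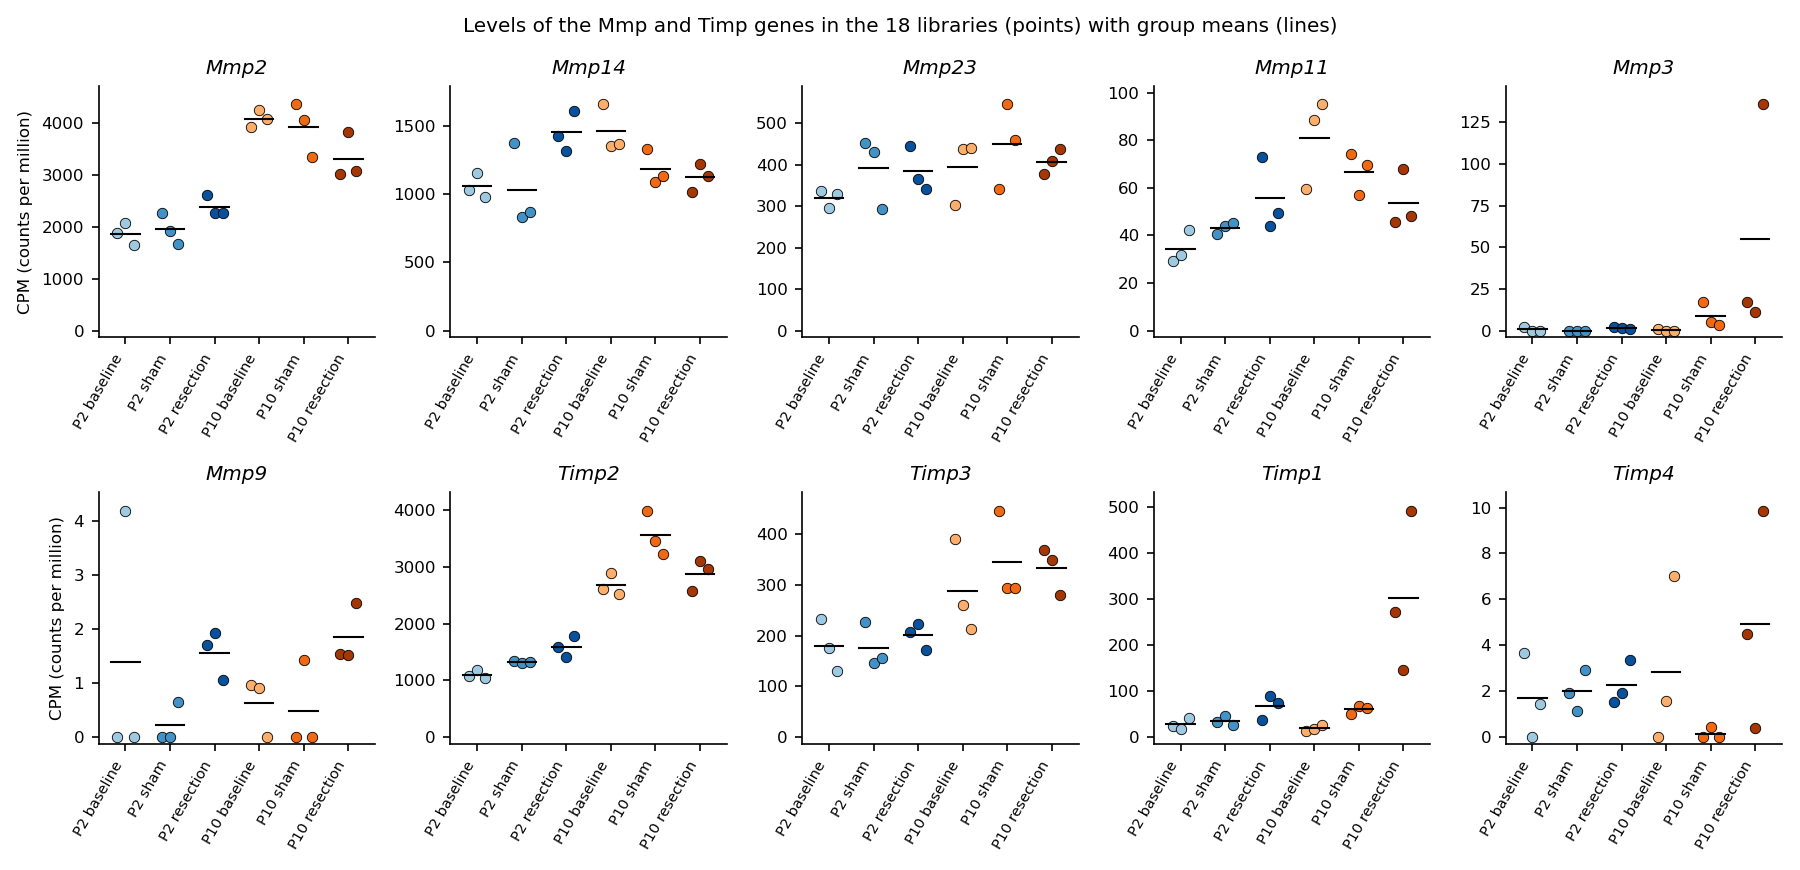
CPM of the 10 genes (vertical axes, linear and starting at 0, a separate scale for each gene) in the 6 groups (horizontal axes), with a point for each of 18 libraries and a line at each group mean. Timp2 and Mmp2 lie higher in all P10 than in all P2 libraries, and the 3 P10 resection libraries have the highest Timp1 values, from 146 to 493 CPM.

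Positions of the genes on GRCm38 were taken from GENCODE M21. Mmp2 spans chr8:92827291-92853420, Mmp14 chr14:54431612-54445364, Mmp23 chr4:155650655-155653384, Mmp11 chr10:75923222-75936496, Mmp3 chr9:7445822-7455975 and Mmp9 chr2:164940780-164955850. Timp1 (chrX:20870166-20874735), Timp3 (chr10:86300372-86349506) and Timp4 (chr6:115241892-115252205) each lie inside a synapsin gene that runs on the opposite strand (Syn1, Syn3 and Syn2), and Timp2 (chr11:118301069-118355740) does not. Reads were counted without regard to strand, and reads over exons of more than 1 gene are left out by default. Timp1 shares no exon bases with Syn1, whereas 21.3% of the exon bases of Timp3 overlap Syn3, 1.53% of those of Timp4 overlap Syn2 and 5.58% of those of Mmp11 overlap Chchd10. Syn3 had at most 9 counts in a library against at least 2122 for Timp3, and Syn1 at most 84 against at least 205 for Timp1. Timp4 and Syn2 were of similar size, with at most 127 and at most 203 counts, so the Timp4 values are uncertain.

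The sequence around the start of transcription was available in RefSeq (GRCm38.p6) for 8 of the 10 genes, as windows of 300 bases with 250 bases before the start and 50 after it, and Mmp2 and Mmp9 had no window. The windows of 4 genes are shown because the values below turn on them: Mmp3 and Timp1, whose means were highest at P10 resection, and Timp2 and Mmp14, partners in the activation of MMP2, of which Timp2 passed every age comparison and Mmp14 passed none. Capitals mark the words searched on both strands: TGACTCA or TGAGTCA (the AP-1 motif), TGAGTAA (a variant of it), TATAAA and GGGCGG (the GC box, written CCGCCC on the other strand).
Mmp3 (chr9:7445572-7445871, plus strand): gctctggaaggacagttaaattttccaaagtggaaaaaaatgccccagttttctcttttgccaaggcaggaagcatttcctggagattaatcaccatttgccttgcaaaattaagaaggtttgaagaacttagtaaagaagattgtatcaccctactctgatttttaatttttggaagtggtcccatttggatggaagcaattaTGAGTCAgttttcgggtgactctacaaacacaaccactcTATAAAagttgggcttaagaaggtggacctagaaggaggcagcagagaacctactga
Timp1 (chrX:20869916-20870215, plus strand): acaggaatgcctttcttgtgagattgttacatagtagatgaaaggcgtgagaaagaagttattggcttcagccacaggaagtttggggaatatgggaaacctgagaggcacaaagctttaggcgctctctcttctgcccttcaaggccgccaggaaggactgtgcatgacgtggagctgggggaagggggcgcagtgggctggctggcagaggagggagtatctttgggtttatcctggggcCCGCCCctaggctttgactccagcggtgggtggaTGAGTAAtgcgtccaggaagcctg
Timp2 (chr11:118355362-118355661, minus strand): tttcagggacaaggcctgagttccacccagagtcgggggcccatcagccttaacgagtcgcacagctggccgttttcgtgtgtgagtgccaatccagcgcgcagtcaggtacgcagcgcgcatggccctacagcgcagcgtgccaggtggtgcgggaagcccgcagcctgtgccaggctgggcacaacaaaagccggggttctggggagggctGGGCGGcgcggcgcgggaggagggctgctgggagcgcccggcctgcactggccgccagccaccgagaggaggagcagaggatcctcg
Mmp14 (chr14:54431348-54431647, plus strand): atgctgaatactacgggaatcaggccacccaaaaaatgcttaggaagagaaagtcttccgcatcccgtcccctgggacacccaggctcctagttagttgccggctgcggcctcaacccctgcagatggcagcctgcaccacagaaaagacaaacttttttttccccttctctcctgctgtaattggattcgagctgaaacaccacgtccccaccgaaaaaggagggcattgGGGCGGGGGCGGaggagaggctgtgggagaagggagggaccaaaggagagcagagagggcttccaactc
Mmp3 was the only one of the 8 genes whose window held the AP-1 motif, at 46 bases before the start, and 5.2% of all 32851 windows of this length held it. It was also the only one with TATAAA, which stood in 13.6% of all windows. The Timp1 window held TGAGTAA (2.68% of all windows) at base 27 after the start, the only such match among the 8 genes. GGGCGG, present in 35.7% of all windows, occurred in those of Timp1, Timp2, Timp3, Mmp11, Mmp14 and 1 of the 2 windows of Mmp23, and not in those of Mmp3 or Timp4. The windows differed in CG dinucleotides, with 25 for Timp2, 24 for Timp3, 10 for Mmp14, 8 for Timp1, 2 for Timp4 and 1 for Mmp3, against a median of 7 over all windows. No overlap between different motifs was found, and a match of letters is a description and not evidence of binding.

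The first comparison asked how fibroblasts of the P10 window differed from those of the P2 window. Of the 10 genes, 6 were higher in the 9 P10 libraries than in the 9 P2 libraries and 0 were lower, where 13.5% of all genes tested were called (adjusted p under 0.05 in edgeR's quasi-likelihood test, with 1149 genes higher and 1034 lower). The 6 were the enzymes Mmp2, Mmp3 and Mmp11 and the inhibitors Timp1, Timp2 and Timp3. The median log2 fold change of the 10 was 0.70, beside −0.06 over all genes. The comparison pools groups that were and were not operated on, and the 3 comparisons within a treatment that follow share its libraries. Every P10 heart was also digested with collagenase and dispase for longer than every P2 heart, so age and digestion cannot be told apart.

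Timp2 differed most clearly with age. Its level was 1075, 1184 and 1049 CPM at P2 baseline, 1350, 1313 and 1317 CPM at P2 sham, and 1595, 1404 and 1785 CPM at P2 resection. It was 2613, 2903 and 2530 CPM at P10 baseline, 3995, 3467 and 3232 CPM at P10 sham, and 2573, 3110 and 2958 CPM at P10 resection. The lowest P10 library lay above the highest P2 library, so the ages did not overlap, as for 2.51% of all genes tested. The difference on the log2 scale was 1.19 with a standard error of 0.09 (adjusted p = 3.88e-07), a level 2.28 times that of P2. It passed the test in each treatment, with log2 fold changes of 1.28 at baseline (adjusted p = 0.000251), 1.43 after sham surgery (adjusted p = 0.000171) and 0.85 after resection (adjusted p = 0.0138). After resection the call was lost without any one of 4 libraries, at log2 fold changes between 0.77 and 0.85 and adjusted p-values from 0.0532 (without the first P2 resection library) to 0.141 (without the second P2 resection library), with 0.0561 and 0.0728 without the second and the third P10 resection library. It was also lost in edgeR without the filter on low counts.

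Mmp2, the gelatinase that TIMP2 helps to activate and also inhibits, was higher at P10 in the same way. It was at 1874, 2066 and 1641 CPM at P2 baseline, 2274, 1921 and 1663 CPM at P2 sham, and 2610, 2258 and 2264 CPM at P2 resection. The P10 values were 3932, 4246 and 4072 CPM at baseline, 4366, 4055 and 3343 CPM after sham surgery, and 3020, 3820 and 3082 CPM after resection. Here too all P10 libraries lay above all P2 libraries. On the log2 scale Mmp2 was 0.87 higher (adjusted p = 1.81e-05, standard error 0.10) over both windows, 1.13 at baseline (adjusted p = 0.00136) and 1.01 after sham surgery (adjusted p = 0.0035, or 0.134 in a fit of the sham libraries alone). After resection it was 0.48 (adjusted p = 0.345, standard error 0.18) and did not pass the test. The groups did not overlap, as for 23.3% of all genes tested, and limma voom called Mmp2 (adjusted p = 0.0246). The difference between the age effects in resected and in baseline libraries was −0.66 on the log2 scale (standard error 0.25), with a p of 0.0168 before and 0.662 after adjustment in edgeR.

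Mmp14 did not pass the test between the windows, at 1256 ± 195 CPM in the P10 libraries and 1179 ± 270 CPM in the P2 libraries (SD, n = 9 each). The difference on the log2 scale was 0.10 with a standard error of 0.11 (adjusted p = 0.627). Its values at P2 were 1033, 1158 and 979 CPM at baseline, 1375, 836 and 870 CPM after sham surgery, and 1428, 1319 and 1612 CPM after resection. At P10 they were 1660, 1350 and 1371 CPM at baseline, 1328, 1091 and 1137 CPM after sham surgery, and 1018, 1219 and 1134 CPM after resection. All P10 baseline libraries lay above all P2 baseline libraries (log2 fold change 0.47, adjusted p = 0.215), and all P10 resection libraries lay below all P2 resection libraries (log2 fold change −0.37, adjusted p = 0.665). Such a lack of overlap between the ages was common, at 22.4% of all genes tested at baseline and 23.3% after resection.

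Mmp23, a membrane-bound enzyme that is released by cleavage inside the cell, was at 365 ± 62.4 CPM at P2 and 416 ± 70.9 CPM at P10 (SD, n = 9 each). Its ranges overlapped, at a log2 fold change of 0.19 (adjusted p = 0.355 in edgeR, although limma voom called it). Mmp11, which furin activates before secretion, was higher at P10, at 67.3 ± 16.9 CPM against 44.4 ± 12.6 CPM (SD, n = 9 each), and passed the test (adjusted p = 0.0118) at a log2 fold change of 0.61 with a standard error of 0.15. The windows overlapped, and the difference was called at baseline alone. There Mmp11 was at 29.1, 31.6 and 42.2 CPM at P2 and at 59.6, 88.5 and 95.2 CPM at P10 (log2 fold change 1.24, standard error 0.27, adjusted p = 0.0127). These libraries did not overlap, as for 22.4% of all genes tested. The baseline call was lost without any one of 4 baseline libraries, with adjusted p-values from 0.0614 to 0.0797: the first or the second at P2, or the second or the third at P10. In a fit of the baseline libraries alone the adjusted p was 0.0689. After resection the log2 fold change of Mmp11 between the ages was −0.05 (standard error 0.26). The difference between its age effects in resected and baseline libraries was −1.29 (standard error 0.37), with a p of 0.00293 before and 0.389 after adjustment.

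Timp3, the inhibitor that binds to the matrix and also blocks ADAM17 and the ADAMTS proteases, was at 185 ± 38.4 CPM in the P2 and 322 ± 72.7 CPM in the P10 libraries (SD, n = 9 each). The difference of 0.79 on the log2 scale (adjusted p = 0.00256, standard error 0.16) passed the test. Its ranges overlapped, with P2 libraries up to 233 CPM and P10 libraries from 214 CPM. Within baseline, sham and resection groups the log2 fold changes were 0.68, 0.97 and 0.73, with adjusted p-values of 0.189, 0.0705 and 0.364. These calls depended on the tool: after sham surgery Timp3 was called by DESeq2 (adjusted p = 0.0272), limma voom (adjusted p = 0.0297) and edgeR without the filter on low counts, and after resection by limma voom (adjusted p = 0.0159). With the replicate number as a block in edgeR the adjusted p was 0.0382 at baseline and 0.00685 after sham surgery.

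Timp1 and Mmp3 were also higher over the P10 window, but not at baseline. Between the windows Timp1 differed by 0.80 on the log2 scale (adjusted p = 0.0449, standard error 0.25), with P2 libraries from 17.7 to 88.5 CPM and P10 libraries from 12.4 to 493 CPM. That call was lost without any one of 12 of the 18 libraries, with adjusted p-values up to 0.113, the value without the third P10 resection library. At baseline its log2 fold change was −0.56 (adjusted p = 0.543), after sham surgery 0.76 (adjusted p = 0.41), and after resection 2.19 (standard error 0.45, adjusted p = 0.025). The last of these calls was lost without any one P2 resection library (adjusted p = 0.123, 0.0941 and 0.101) and without the third P10 resection library (log2 fold change 1.66, adjusted p = 0.211). It was also lost in a fit of the resection libraries alone (adjusted p = 0.0513).

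Mmp3, stromelysin-1, cuts many matrix proteins and activates other proenzymes of its family. It had 46 counts in 1 library at P2 baseline, 0 counts in all 3 libraries at P2 sham and 32, 30 and 18 counts at P2 resection. At P10 it had 12 counts in 1 baseline library, 349, 75 and 69 counts after sham surgery and 342, 175 and 1750 counts after resection. The 6 operated P10 libraries (3.25 to 136 CPM) therefore lay above the other 12 libraries (up to 2.12 CPM). Between the windows Mmp3 averaged 21.1 CPM at P10 and 0.696 CPM at P2 (adjusted p = 0.0101), while the P10 median was 4.85 CPM and the P10 mean without the third resection library, at 136 CPM, was 6.80 CPM. The comparison had a fitted log2 fold change of 4.70 that depends on the prior count because P2 sham was at 0. That call was lost without the first P10 baseline library (adjusted p = 1) and in limma voom with sample quality weights (adjusted p = 0.152). After sham surgery Mmp3 was at least 169.7-fold higher at P10 than at P2, with the P2 sham group set to a total of 3 counts (adjusted p = 0.0311). The first P10 sham library held 349 of the 493 counts, and without it the bound was 76.6-fold. Without that library or any one P2 sham library the adjusted p lay between 0.0761 and 0.0857, and the call was also lost in limma voom (adjusted p = 0.206) and in a fit of the sham libraries alone (adjusted p = 0.0522). After resection Mmp3 was higher in all P10 than in all P2 libraries, where 23.3% of all genes tested did not overlap. Its log2 fold change was 5.30 (adjusted p = 0.162, standard error 1.54), and it did not pass the test. It was called by limma voom (adjusted p = 0.036), by edgeR without the filter on low counts and in an edgeR fit of these 6 libraries alone (adjusted p = 0.0351). Without the third P10 resection library its log2 fold change was 3.36, with an adjusted p of 1.

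Mmp9, the gelatinase B of neutrophil granules and macrophages, and Timp4, the Timp best known from the heart, did not pass the test between the windows (adjusted p = 0.996 and 0.722). Mmp9 was at 0 to 4.19 CPM in the P2 libraries and 0 to 2.49 CPM in the P10 libraries, and Timp4 at 0 to 3.68 CPM and 0 to 9.87 CPM, so the ranges overlapped for both genes. Between resection and sham, the 3 resection libraries lay above the 3 sham libraries for Mmp9 at P2 and at P10, all at under 3 CPM and with adjusted p-values of 1 in edgeR. These groups did not overlap for 8.47% of all genes tested at P2 and for 8.68% at P10.

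**Figure D2:**
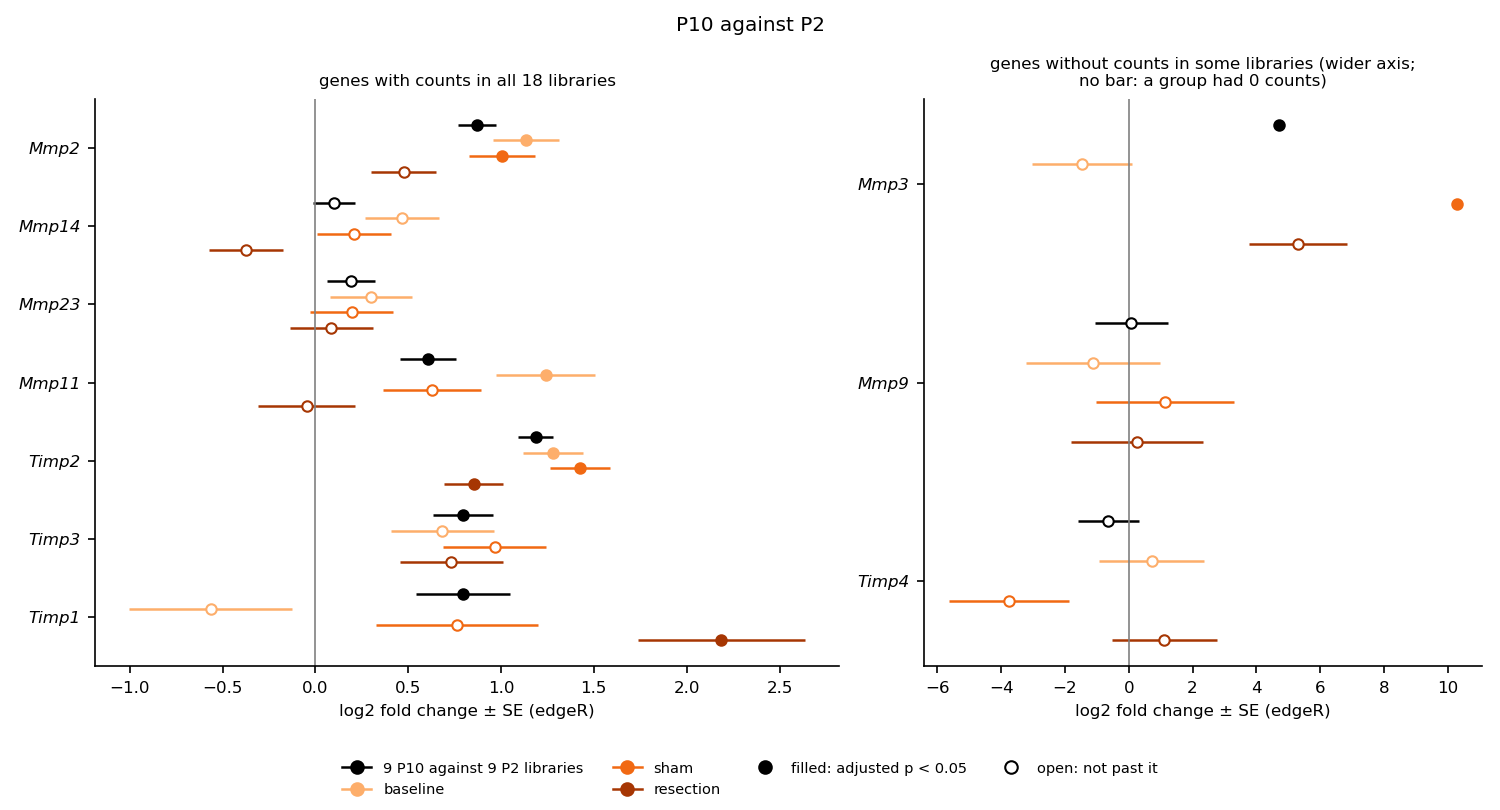
Log2 fold change ± standard error (horizontal axes) of P10 against P2 libraries for the 10 genes, over all 18 libraries (black) and within baseline, sham and resection libraries (light to dark orange). Filled points have an adjusted p under 0.05. Timp2 is filled in all 4 comparisons, and Mmp14 in none. Points without a bar belong to Mmp3 where P2 sham, with 0 counts, enters.

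Within the treatments, 3 of the 10 genes were called at baseline (Mmp2, Mmp11 and Timp2), where 4.38% of all genes were called. There were 3 after sham surgery (Mmp2, Mmp3 and Timp2), where 3.18% of all genes were called, and 2 after resection (Timp1 and Timp2), where 0.86% were. All were higher at P10. The medians of the 10 log2 fold changes were 0.575, 0.864 and 0.605, beside −0.03, −0.07 and −0.04 over all genes, and the median after sham surgery is the same with Mmp3 at its lower bound. Sums of marker lists also differed between the ages, in a comparison where 13.5% of all genes were called. The 12 genes of a dissociation stress list (such as Fos, Jun and Hspa1a) summed to 3490 to 9016 CPM in the P2 and 7458 to 16463 CPM in the P10 libraries, with 6 of 12 called higher, and the 9 cardiomyocyte genes to 272 to 1311 CPM at P2 and 139 to 676 CPM at P10, with 5 of 9 called lower. Of the 8 fibroblast markers, 3 were called higher at P10. The 8 mural genes summed to 512 to 843 CPM at P2 baseline and 1004 to 1984 CPM at P10 baseline, without overlap and with 3 of 8 called higher, and over the windows 3 were called higher and 1 lower. Of the 8 activated fibroblast genes 1 was called higher and 2 lower in the P10 window, and 5 had an unadjusted p under 0.05 (28.3% of all genes). Their sum was 8595 to 24829 CPM in the P2 and 5032 to 18229 CPM in the P10 libraries. Over the windows, 1 of the 8 epicardial genes was called lower and 1 of the 12 macrophage genes higher, shares near that of all genes. At baseline the epicardial genes summed to 86.3 to 95.4 CPM at P2 and 30.1 to 51.7 CPM at P10, without overlap. There 7 of 8 had a negative and 0 a positive log2 fold change (median −2.41), with 1 called lower. The part of these lists in the Mmp and Timp differences was not tested.

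The second question was whether resection changed the 10 genes beyond sham surgery. By edgeR, 0 of the 10 genes were called at P2, where 0% of all genes were called. Likewise 0 of 10 were called at P10 (0% of all genes), 0 for the effect shared by both ages (0%) and 0 for the difference between the effects (0%). With an unadjusted p under 0.05 there were 2 of 10 at P2 (Mmp3 and Mmp14), 2 at P10 (Timp1 and Timp4), 2 for the shared effect (Timp1 and Mmp3) and 3 for the difference (Timp1, Timp2 and Mmp2). Over all genes, 4.51%, 4.09%, 5.78% and 2.88% had an unadjusted p under 0.05 in these comparisons. DESeq2 called 0, 1, 1 and 0 of the 10 genes, beside 0.2%, 0.213%, 0.551% and 0.114% of all genes. Limma voom with sample quality weights called 0, 0, 1 and 0, beside 0%, 0%, 0.315% and 0% of all genes. In each case the gene was Timp1. Without the filter on low counts edgeR called 1 (Mmp3), 2 (Mmp3 and Timp1), 2 (Mmp3 and Timp1) and 0, beside 0.083%, 0.263%, 0.332% and 0.104% of all genes.

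Timp1, a secreted inhibitor of most soluble metalloproteinases, had the largest resection difference of the genes counted in every library. At P10 it was at 12.4, 17.2 and 26.7 CPM at baseline, 49.5, 68.5 and 62.8 CPM after sham surgery, and 272, 146 and 493 CPM after resection. The 3 groups did not overlap. P10 resection and P10 sham did not overlap for 8.68% of all genes tested, and P10 sham and P10 baseline for 10%. For Timp1, resection against sham gave a log2 fold change of 2.33 (standard error 0.45), 5.04 times the sham level, with a p of 7.82e-05 before and 0.626 after adjustment in edgeR. The adjusted p was 0.000318 in DESeq2, 0.114 in limma voom and 4.05e-08 in edgeR without the filter on low counts, so the call turned on the tool and the filter. Without the third P10 resection library the edgeR log2 fold change was 1.79, with an adjusted p of 0.611.

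At P2 Timp1 was at 23.2, 17.7 and 42.3 CPM at baseline, 33.8, 45.9 and 26.9 CPM after sham surgery, and 36.2, 88.5 and 75.3 CPM after resection. The resection libraries overlapped the sham libraries, and the difference was 0.91 ± 0.44 (standard error) on the log2 scale (adjusted p = 1 in edgeR). The effect shared by the ages was 1.62 with a standard error of 0.31 (adjusted p = 0.211 in edgeR), with adjusted p-values of 0.000424 in DESeq2, 0.0465 in limma voom and 1.80e-08 in edgeR without the filter. The P10 effect exceeded the P2 effect by 1.43 on the log2 scale with a standard error of 0.62 (adjusted p = 1 in edgeR), which did not pass the test.

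Summed markers of other cells also differed between P10 libraries, with 0 of 12 macrophage genes and 0 of 8 activated fibroblast genes called between resection and sham. The 12 macrophage genes summed to 17.7 to 201 CPM at P10 baseline, 89.6 to 362 CPM after sham surgery and 445, 1081 and 69.5 CPM after resection. The third P10 resection library, which had the highest Timp1 and Mmp3 levels, had the lowest macrophage sum of its group and the highest neutrophil sum of all 18 libraries (16.2 CPM). The 8 epicardial genes summed to 30.8 to 40.0 CPM after sham surgery and to 99.3, 70.8 and 50.1 CPM after resection. The 9 neutrophil genes summed to at most 6.60 CPM after sham surgery and to between 5.59 and 16.2 CPM after resection, with 0 of the 5 tested called and all 5 at a positive log2 fold change. Of this list, Ngp had 13, 3 and 45 counts after resection and 0 in every P10 sham library, Ly6g had 0 counts after resection, and Cxcr2 had 0 counts in all 18 libraries. The 8 activated fibroblast genes summed to 5032 to 9495 CPM after sham surgery and 8418 to 9564 CPM after resection, with 8 of 8 at a positive log2 fold change (median 0.777) and 3 with an unadjusted p under 0.05 in edgeR. Within this list Ccn2 was at 253 to 315 CPM after sham surgery and 622 to 842 CPM after resection, and Tnc at 39.2 to 50.2 CPM and 115 to 201 CPM. Neither overlapped, nor did Tagln or Cthrc1, whereas Postn, Acta2, Lox and Fn1 did. In this comparison 8.68% of all genes tested did not overlap. The 8 epicardial genes likewise had 0 called, 8 of 8 positive and 3 with an unadjusted p under 0.05, beside 4.09% of all genes. The 12 dissociation stress genes summed to 14483, 7458 and 8165 CPM after sham surgery. After resection they summed to 13480, 10492 and 16463 CPM, the last of these the highest of all 18 libraries, with 0 called, 10 positive and 2 negative. For the 8 endothelial genes, 0 were called and 7 of 8 were positive (median 1.61), with overlapping sums of 254 to 470 CPM after sham surgery and 305 to 478 CPM after resection. The part of these lists in the Timp1 and Mmp3 values was not tested.

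Mmp3 was at 17.4, 4.85 and 3.25 CPM after sham surgery and 17.0, 11.1 and 136 CPM after resection at P10, and the groups overlapped (log2 fold change 2.68, standard error 1.36, adjusted p = 1). Without the third P10 resection library its log2 fold change was 0.71, and edgeR without the filter on low counts called Mmp3 in this comparison. At P2, resection libraries had 18 to 32 counts where sham libraries had 0, at least 26.6-fold higher with the sham group set to a total of 3 counts, with a p of 0.00827 before and 1 after adjustment. Timp4 was at 0, 0.453 and 0 CPM after sham surgery and 4.47, 0.381 and 9.87 CPM after resection at P10, with an overlap and an adjusted p of 1.

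Timp2 passed the test at neither age, and its resection libraries stood on opposite sides of the sham libraries at the 2 ages. At P2 all resection libraries lay above all sham libraries for Timp2 (log2 fold change 0.27, standard error 0.16), and at P10 all lay below them (log2 fold change −0.31, standard error 0.16). Of all genes tested, 8.47% did not overlap at P2, 8.68% did not at P10, and 0.198% stood on opposite sides at the 2 ages. For Timp2 the values were 1350, 1313 and 1317 CPM after sham surgery and 1404 CPM or more after resection at P2, and 3232 CPM or more after sham surgery and 3110 CPM or less after resection at P10. The difference of the effects was −0.57 (standard error 0.22), with a p of 0.0206 before and 1 after adjustment in edgeR. Mmp14 had log2 fold changes of 0.50 (standard error 0.20) at P2 and −0.08 (standard error 0.20) at P10, with overlap at both ages. Mmp2 had 0.28 and −0.25, Mmp11 0.36 and −0.31, Timp3 0.18 and −0.05, and Mmp23 −0.03 and −0.14, and all had adjusted p-values of 1. The median over the 10 genes was 0.32 at P2 and −0.06 at P10, beside 0 and 0.02 over all genes. Both comparisons have their own sham libraries. At P2, 9 of the 10 log2 fold changes were positive. So were 11 of 12 macrophage genes (median 0.945) and 8 of 8 activated fibroblast genes (median 0.782), with 0 called in either list. The part of these lists in the P2 values was not tested.

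Sham surgery was compared with baseline, a comparison that also holds 3 days of growth. By edgeR 0 of 10 genes were called at P2 (0% of all genes) and 0 of 10 at P10 (0.00618% of all genes). An unadjusted p under 0.05 was found for 1 of 10 at P2, beside 7.6% of all genes, and for 4 of 10 at P10, beside 7.4%. DESeq2 called 0 at P2 (1.09% of all genes) and Timp1 alone at P10 (0.963%), and limma voom called 0 at P2 (0%) and 0 at P10 (0.00618%). Timp1 was higher in all 3 sham than in all 3 baseline libraries at P10, by 1.68 ± 0.45 (standard error) on the log2 scale, and had adjusted p-values of 0.401 in edgeR and 0.034 in DESeq2. At P2 its groups overlapped (log2 fold change 0.36, adjusted p = 0.944). Timp2 was without overlap higher after sham surgery than at baseline at both ages, by 0.27 at P2 (adjusted p = 0.737) and 0.41 at P10 (adjusted p = 0.646) on the log2 scale. Sham and baseline libraries did not overlap for 9.96% of all genes tested at P2 and for 10% at P10. Mmp3 was at 0.243 CPM on average at P10 baseline and 8.51 CPM after sham surgery, without overlap (log2 fold change 5.01, unadjusted p = 0.00734 and adjusted p = 0.575 in edgeR). Without the first P10 sham library the log2 fold change was 3.94. The 4 genes with an unadjusted p under 0.05 at P10 were Timp1, Mmp3, Timp2 and Timp4, of which Timp4 was lower after sham surgery. Mmp14 was lower without overlap, at 1185 against 1460.4 CPM (log2 fold change −0.30, adjusted p = 0.822). Marker lists also moved between P10 sham and P10 baseline, with 0 genes called in each of those that follow. Positive log2 fold changes were found for 11 of 12 macrophage genes (median 1.33) and 1 of 12 dissociation stress genes (median −0.447). For activated fibroblast and mural genes they were found for 0 of 8 each. The part of these lists was not tested.

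**Figure D3:**
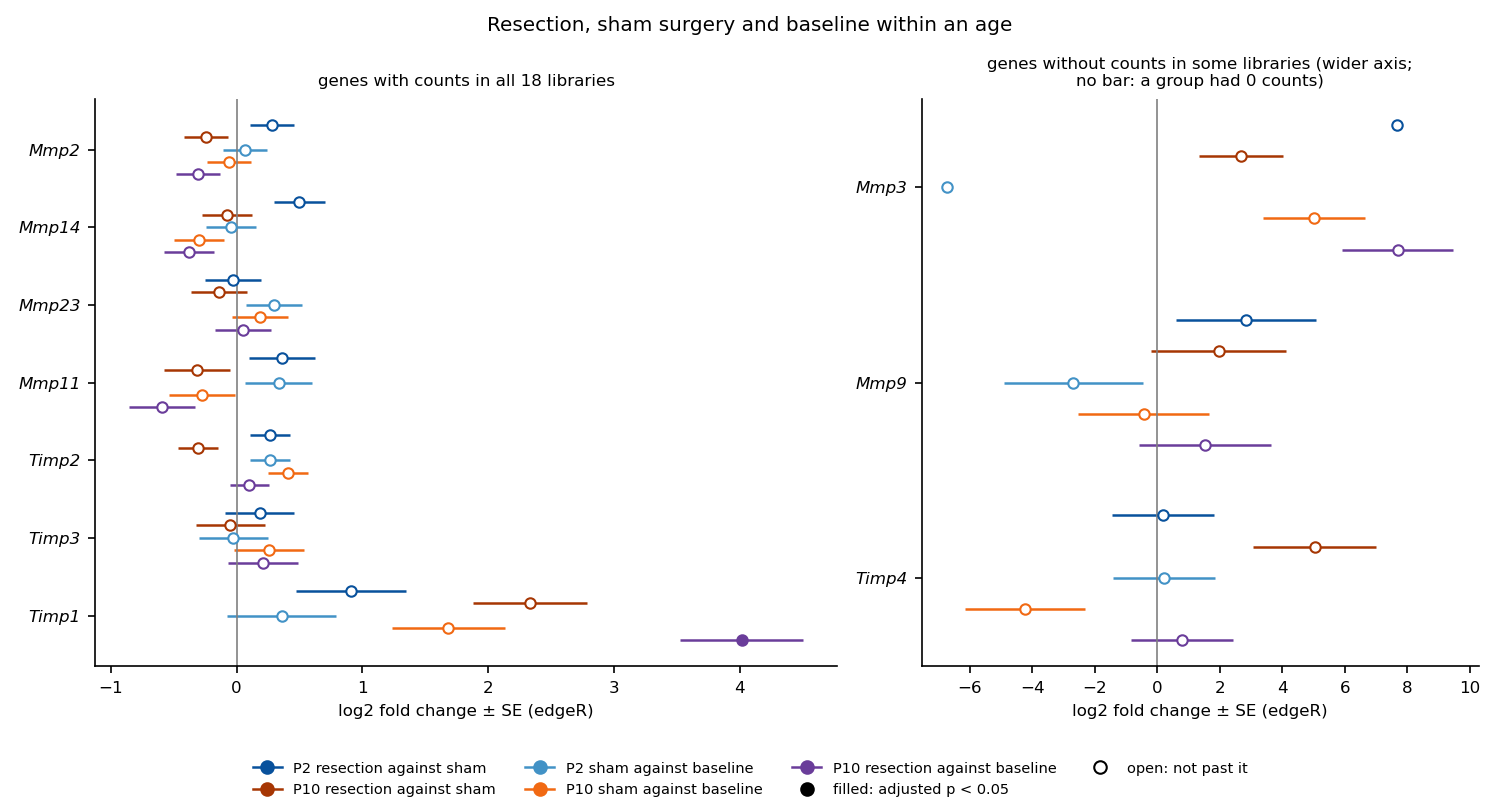
Log2 fold change ± standard error (horizontal axes) of the 10 genes for resection against sham, sham against baseline and, at P10, resection against baseline, with blue for P2 and orange or purple for P10. The sole filled point, with an adjusted p under 0.05, is Timp1 in P10 resection against P10 baseline, and the right panel has a wider axis for the 3 genes with few counts, where Mmp3 has no bar if P2 sham, at 0 counts, enters.

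Resected and baseline libraries were compared after these values were known. At P10, Timp1 was called (log2 fold change 4.02, standard error 0.49, adjusted p = 0.00379), at 304 ± 176 CPM after resection and 18.8 ± 7.28 CPM at baseline (SD, n = 3 each), 16.2 times the baseline level. It was 1 of 10 genes called, where 0.0989% of all genes were. In the same comparison 0 of 12 macrophage genes were called, with 12 of 12 at a positive log2 fold change and 4 with an unadjusted p under 0.05 in edgeR, and 0 of 8 epicardial genes, with 8 of 8 positive and 4 with an unadjusted p under 0.05, beside 6.48% of all genes. Of 9 neutrophil genes 5 were tested and 0 called, with 4 positive and 2 with an unadjusted p under 0.05, and their sum was 0 to 0.963 CPM at P10 baseline and 5.59 to 16.2 CPM after resection, without overlap. The epicardial genes summed to 30.1 to 51.7 CPM at P10 baseline and 50.1 to 99.3 CPM after resection, and Wt1, Krt8, Upk1b and Lrrn4 had 0 counts in every P10 baseline library. Other lists did not rise. Of the 8 activated fibroblast genes 3 were positive and 5 negative (median −0.135), and of the 8 mural genes 0 were positive (median −0.492), with 0 called in either list. The part of these lists in the Timp1 difference was not tested. Without the second P10 baseline library the adjusted p was 0.082, and in a fit of these 6 libraries alone it was 0.153. At P2, 0 of 10 genes were called by edgeR (0.0124% of all genes), 1 by DESeq2 (Timp2, beside 0.609% of all genes) and 0 by limma voom (0.476%). There 4 of 10 had an unadjusted p under 0.05 in edgeR, beside 4.53% of all genes, and the log2 fold change of Timp1 was 1.27 (standard error 0.44, adjusted p = 0.835). Between the age effects in resected and in baseline libraries, 0 of 10 genes differed by edgeR (0.0557% of all genes), 2 by DESeq2 (Timp1 and Mmp11, beside 0.884% of all genes) and 1 by limma voom (Mmp11, beside 0.952%). In edgeR 5 of 10 had an unadjusted p under 0.05, beside 5.9% of all genes. The Timp1 value was 2.75 (standard error 0.63), with a p of 0.000385 before and 0.158 after adjustment in edgeR.

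Ratios between the genes were compared as a description. Per length, Timp2 stood to Mmp14 at 1.57 to 1.64 in the P2 baseline libraries, 1.50 to 2.40 at P2 sham and 1.63 to 1.71 at P2 resection. At P10 the ratio was 2.41 to 3.29 at baseline, 4.35 to 4.86 after sham surgery and 3.87 to 3.99 after resection. All P10 libraries lay above all P2 libraries, with the highest P2 sham library just under the lowest P10 baseline library, and at P10 the 3 groups did not overlap. Timp2 to Mmp2 was 0.496 to 0.685 at P2 and 0.538 to 0.836 at P10, where all operated libraries (0.705 and above) lay above all baseline libraries (0.592 and below). The 4 Timps summed to 0.365 to 0.510 of the 6 Mmps in the P2 libraries, to 0.426 to 0.467 at P10 baseline, to 0.611 to 0.668 at P10 sham and to 0.652 to 0.976 at P10 resection. These are ratios of transcripts, which do not give the ratio of active enzyme to inhibitor.

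**Figure D4:**
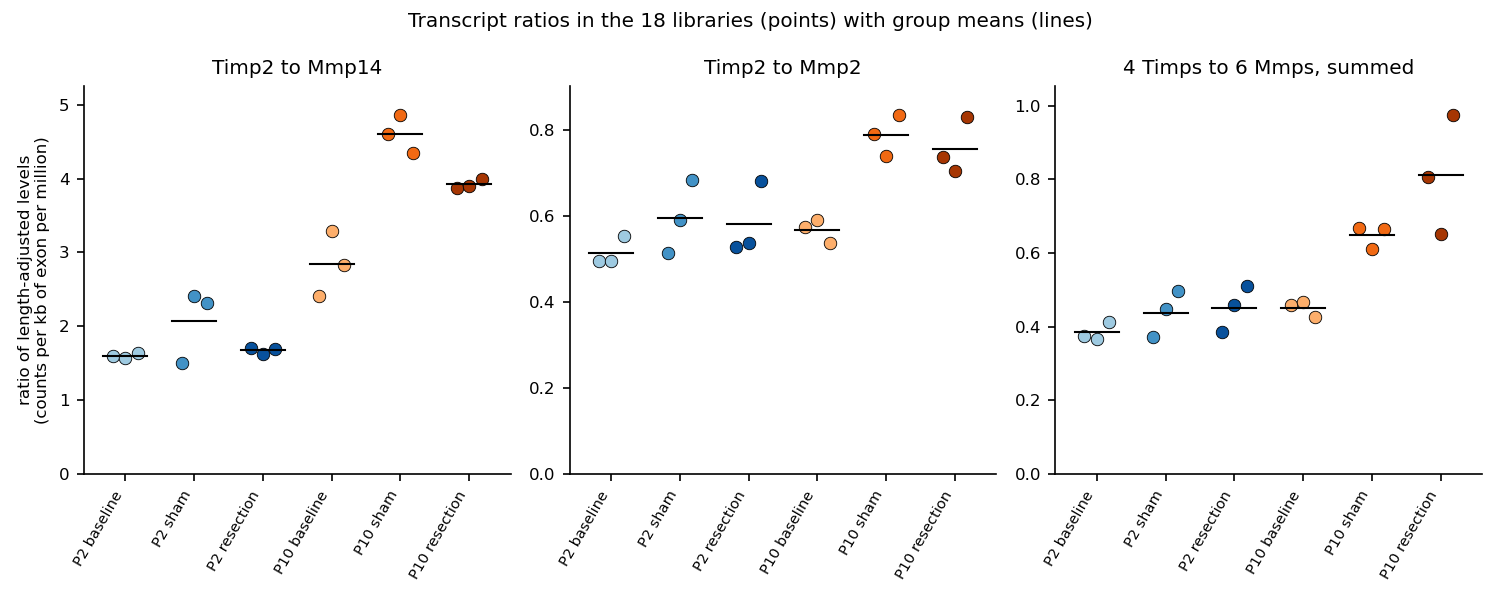
Ratios of length-adjusted levels (vertical axes, starting at 0) in the 18 libraries, with a line at each group mean. Timp2 to Mmp14 is 1.50 to 2.40 in the 9 P2 libraries and 2.41 to 4.86 in the 9 P10 libraries.

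Of 35 further genes around these enzymes (activators, receptors, other inhibitors and sheddases), 32 were tested. In the P10 window 11 were higher and 1 was lower, where 13.5% of all genes were called, with a median log2 fold change of 0.46. DESeq2 called 15 higher and 1 lower (19.3% of all genes), and limma voom 16 and 4 (28.3% of all genes). Pcolce2, which helps to trim procollagen, had the smallest adjusted p, with 200 CPM at P10 and 19.3 CPM at P2 (log2 fold change 3.44, standard error 0.17, adjusted p = 3.21e-09). Pcsk6, a proprotein convertase, was at 2623 against 829 CPM (log2 fold change 1.68, standard error 0.12), and Ctsk, the collagen-cutting cathepsin K, at 186 against 95.9 CPM (log2 fold change 1.01, standard error 0.13). For these 3 genes the 9 P10 and 9 P2 libraries did not overlap, as for 2.51% of all genes tested. Pcolce, the enhancer related to Pcolce2, was higher as well (log2 fold change 0.68, standard error 0.14). Adam12, a membrane sheddase, was the gene that was lower, at 12.2 against 35.3 CPM (log2 fold change −1.58, standard error 0.25).

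**Figure D5:**
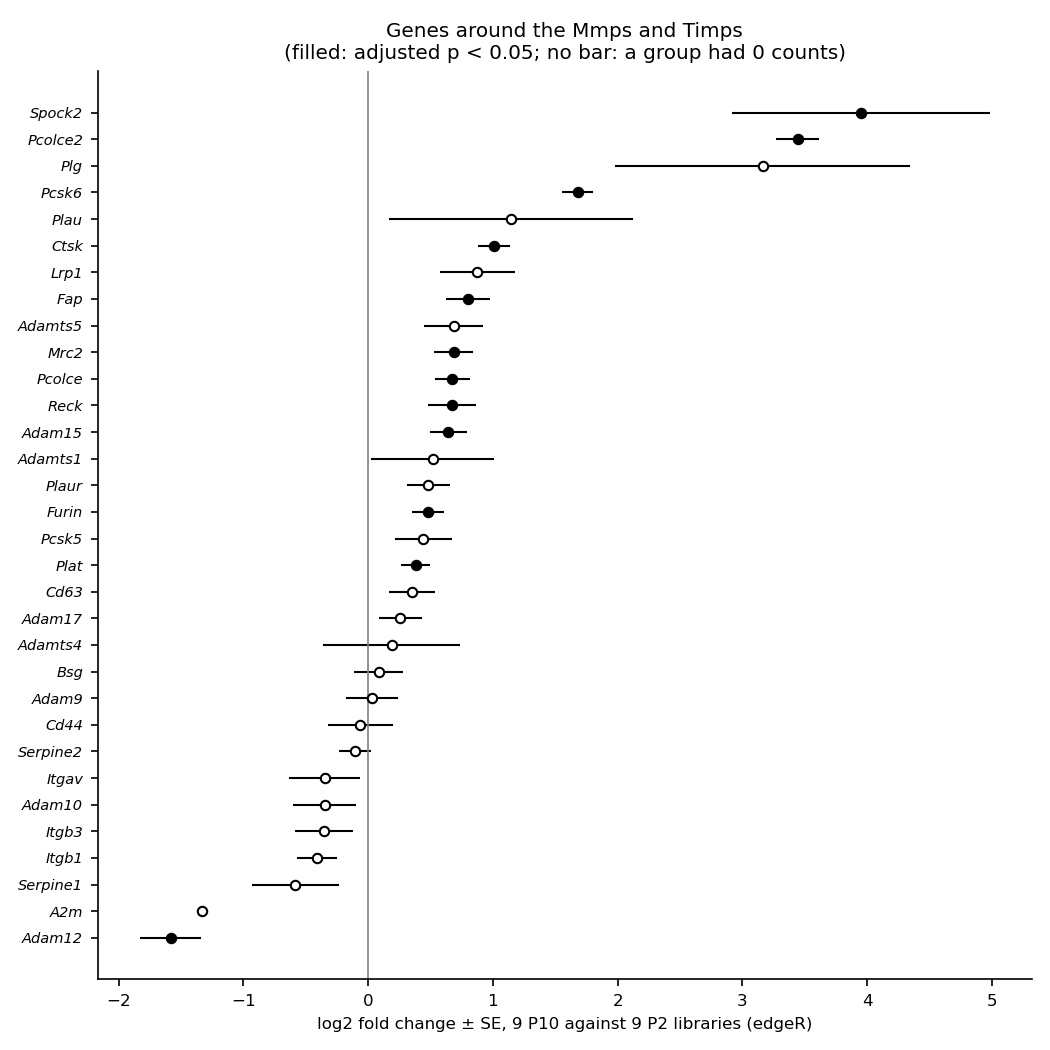
Log2 fold change ± standard error (horizontal axis) of the 9 P10 against the 9 P2 libraries for the 32 genes tested (vertical axis). Filled points have an adjusted p under 0.05: 11 lie to the right of 0 and 1, Adam12, to the left. A2m has no bar, since it had 0 counts in whole groups.

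At baseline 5 of the 32 were higher at P10 (Pcolce2 by 3.75, Pcsk6 by 2.06, Ctsk by 1.37, Fap, a membrane serine protease, by 1.34 and Mrc2, a collagen uptake receptor, by 1.06 on the log2 scale), and Adam12 was lower (−1.58), where 4.38% of all genes were called. After sham surgery 3 were higher (Pcolce2 by 3.18, Pcsk6 by 1.68 and Ctsk by 0.94) and Adam12 was lower (−1.91), where 3.18% of all genes were called. After resection Pcolce2 (3.39) and Pcsk6 (1.30) were higher and 0 were lower, where 0.86% of all genes were called. Between resection and sham, edgeR, DESeq2 and limma voom each called 0 of these genes at P2 and at P10. In edgeR 1 gene at P2 (Furin) and 2 at P10 (Cd44 and Adam12) had an unadjusted p under 0.05, beside 4.51% and 4.09% of all genes. Of 17 other Mmp genes 8 were tested. In the P10 window edgeR called 0, beside 13.5% of all genes, and 2 had an unadjusted p under 0.05, beside 28.3%. DESeq2 called 1 (Mmp15, lower) and limma voom 0. Their smallest adjusted p in edgeR was 0.0791, for Mmp15, at 8.99 CPM at P10 and 14.0 CPM at P2 (log2 fold change −0.67).

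The genes whose log2 CPM varied most like each member were ranked by the lower of its Pearson correlations over the 9 P2 and over the 9 P10 libraries, as a description over libraries that share their groups. For Timp1 these were Sod3, an extracellular superoxide dismutase (0.860 and 0.905), Ccn2, also called connective tissue growth factor (0.848 and 0.852), and C1qtnf6 (0.845 and 0.909). For Mmp14 they were Thbs2, which encodes a matricellular thrombospondin (0.889 and 0.851), Gm44200 (0.852 and 0.846) and Bag3 (0.924 and 0.846). For Mmp2 they were Tom1l2, Fat3 and Nck2, for Mmp11 Pamr1, Rnf112 and Islr, for Timp2 Gm16299, Ubap1l and Crispld2, and for Timp3 Ssh2, Epb41l5 and Fyco1. For Mmp23 they were Fibp, Nrip2 and Paxx. Within the 10 genes, Mmp2 and Mmp14 (0.841 and 0.626) and Mmp2 and Mmp11 (0.503 and 0.737) varied together at both ages, and Mmp3 and Timp3 had 0.618 at P2 and 0.50 at P10. Timp1 correlated negatively at P10 with Mmp14 (−0.804), Mmp2 (−0.765) and Mmp11 (−0.701), where the P2 values were 0.393, 0.307 and 0.463. Timp1 and Mmp3 varied together at P10 (0.856) more than at P2 (0.339), where Mmp3 had counts in 4 of 9 libraries.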

How the data were processed

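GFP+ cells of the Tcf21 lineage were sorted from 18 mouse samples, and their RNA was amplified and sequenced as single-end reads. The authors trimmed reads with fastp 0.20.0, aligned them to GRCm38.p6 with STAR 2.7.0f and GENCODE M22, and counted them over exons by gene name without strand with featureCounts (Subread 1.6.4). The deposited table holds raw counts. Samples were grouped by their labels. The 10 members and the lists were chosen with earlier results of these data known. All members were named, as were called genes of the pathway list, up to 5 per comparison by smallest adjusted p.

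In R 4.3.3, edgeR 4.0.16 (TMM scaling, filterByExpr at its default minima of 10 counts and a total of 15, quasi-likelihood test, 1 mean per group over all 18 libraries) tested 16170 genes, with Benjamini-Hochberg adjustment over them and a threshold of 0.05. The methods name DESeq2, which was an alternative here (version 1.42.0, with an adjusted p for 9 of the 10 members), as was limma 3.58.1 voom with sample quality weights. Other alternatives were the scaling, no filter, the groups compared alone, the replicate number as a block and leaving out each library. Standard errors are those implied by the F statistic and are not given where a group of the comparison had 0 counts throughout. Same-numbered libraries were checked for shared deviations from their group means: all 3 correlations were over 0.1 for P2 against P10 resection (0.121, 0.189 and 0.13) and for P10 baseline against P10 sham (0.328, 0.107 and 0.125), and not in the other pairs of groups compared. They were also over 0.1 for P2 sham against P10 baseline (0.378, 0.146 and 0.151), a pair not compared here. The scripts were tested on simulated data. Per-length levels use exon lengths of GENCODE M21, a release before the authors' own.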

Additional observations from a re-analysis of the deposited data

Results flagged for a closer look

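For 3 genes, libraries of 2 groups stood on opposite sides of their comparison groups, without overlap. Of all genes tested, 0.198% did so for resection against sham at P2 and P10, 0.563% for the ages at baseline and after resection, and 0.897% for resection against baseline at P2 and P10. Timp2 differed by 0.265 between resection and sham at P2 and by −0.308 at P10 on the log2 scale, and the difference of −0.573 had an unadjusted p of 0.0206 and an adjusted p of 1 in edgeR.

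Mmp14 differed by 0.467 between the ages at baseline and by −0.371 after resection, and the difference was −0.838 (adjusted p = 0.552 in edgeR). The same libraries read by age gave 0.459 for resection against baseline at P2 and −0.378 at P10. Mmp2 differed by 0.354 between resection and baseline at P2 and by −0.304 at P10, with a difference of −0.658 (adjusted p = 0.662 in edgeR). None of these differences passed the test, and the comparisons with baseline also hold 3 days of growth and were chosen after seeing the data. The values for Mmp2 and Mmp14 share their libraries.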

How the results depend on the processing

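Of the 10 genes, 6 were called between the windows under every tool and scaling, although limma voom called Mmp23 in place of Mmp3. Between the ages after sham surgery, a fit of the groups compared alone called 1 gene. After resection limma voom called 5, and leaving out 1 library gave 0 to 2. Without the filter on low counts edgeR called 1 gene for resection against sham at P2, 2 at P10 and 2 for the shared effect, 1 for sham against baseline at P2 and 2 at P10, 1 for resection against baseline at P2 and 2 at P10, and 2 for the difference of the age effects. DESeq2 called 1 gene for resection against sham at P10, 1 for the shared effect, 1 for sham against baseline at P10, 1 and 2 for resection against baseline at P2 and P10, and 2 for the difference of the age effects. Limma voom called 1 for the shared effect and 1 for the difference of the age effects. For resection against baseline at P10, a fit of the groups compared alone called 0 and leaving out 1 library gave 0 to 1, with 0 without the second P10 baseline library. For the difference of the age effects leaving out 1 library gave 0 to 1, with 1 without the second P10 resection library. No called fold change turned its direction under these alternatives. Tools and settings also differed in how many of all genes they called. A larger count of members under a given tool is therefore not by itself a result about the members. The cause of these shifts was not tested.

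The number of all genes called in the P10 window was 2183 in edgeR, 3190 in DESeq2 and 4569 in limma voom. Between P10 resection and P10 sham it was 0, 43 and 0, and 76 in edgeR without the filter. The replicate number as a block changed no call of these genes in the 2 comparisons where every same-numbered correlation was over 0.1. By their labels same-numbered libraries share only a number, and no pairing is stated. Over all 15 pairs of groups, 15 of 45 same-numbered pairs of libraries had deviations with a correlation over 0.1. Of the 45, 22 matched best with their own number, a hint from the data and not from the design. With the replicate number as a block, 6 genes were called between the windows, 4 at baseline and 4 after sham surgery (Timp3 was added in both), 2 after resection and 0 between resection and sham at either age. Mmp3, Mmp9 and Timp4 had counts in 11, 11 and 14 of 18 libraries, which limits what can be detected for them. The comparisons with baseline after resection were chosen after seeing the data.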

Other observations

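The synapsin gene that holds Timp1 on the other strand was itself low. Syn1 had 0 to 84 counts in a library and was called higher in the P10 window, at 1.84 against 0.365 CPM on average (adjusted p = 0.0222 in edgeR). It had 0 counts in every P2 baseline library, so its fitted fold depends on the prior count and is not given. No exon bases are shared with Timp1. Of 17 other Mmp genes, limma voom called Mmp27 between the ages after resection and Mmp12 between P10 resection and P10 baseline, and edgeR called neither.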
